A study of Mus musculus with 6 samples.

Results

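Mouse miR-144 and miR-451 are made from neighbouring genes of a locus that is active in red cell precursors. Both were measured in cultures of the erythroid line G1E-ER4, which carries an estrogen-responsive GATA-1, without estradiol and after 24 h with it. Members were all array probes named mmu-miR-144 or mmu-miR-451 (miR, microRNA or miRNA): 1 probe for each, so 2 of the 275 mouse miRNA names and 2 of the 294 probes that name a mouse miRNA. Each probe was printed as 4 spots, and every spot was read in both colour channels on all 6 arrays, which gave 24 spots per miRNA and channel. MiR-451 went from a signal that the image software called empty to a bright one, and no other named probe changed as much. MiR-144 also had a higher ratio after estradiol, but its signal lay close to that of blank spots in untreated cells, and its call ended in 2 of the 23 alternative processings that gave it a value.

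MiRNAs are short RNAs that guide an Argonaute protein to matching messenger RNAs and lower their output, and bases 2 to 8, the seed, do most of the matching. The genes of miR-144 and miR-451 are transcribed together as a shared primary RNA, and in mouse and zebrafish the locus is known as a target of GATA-1, the zinc finger transcription factor that red cell precursors need to mature. MiR-144 is cut from its hairpin by Drosha and then Dicer, like most miRNAs. MiR-451 is the textbook exception: its short hairpin is passed from Drosha directly to the Argonaute protein Ago2, which cuts it without Dicer. MiR-451 is among the most abundant miRNAs of maturing red cells, and mice without it cope poorly with red cell loss.

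The hairpins of both genes are shown because their shapes differ, with the mature miRNAs in capitals. Sequences and positions are those of RefSeq on mouse assembly GRCm38.p6, where both genes lie on the plus strand of chromosome 11, between Flot2 and Eral1, with 99 bases between the hairpins. The Mir144 hairpin is chr11:78073005-78073070 and the Mir451a hairpin chr11:78073170-78073241.
Mir144 hairpin: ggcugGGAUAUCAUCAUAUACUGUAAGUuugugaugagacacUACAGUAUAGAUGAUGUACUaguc
Mir451a hairpin: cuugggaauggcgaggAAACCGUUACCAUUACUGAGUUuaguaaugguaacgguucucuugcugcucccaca

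Folded with RNAfold, the Mir144 hairpin of 66 bases held 27 base pairs and an end loop of 6 bases, and its predicted energy was -28.60 kcal/mol. It carries a mature miRNA on each arm, miR-144-5p at bases 6 to 28 and miR-144-3p at bases 43 to 62, and neither reaches into the loop. The Mir451a hairpin of 72 bases held 30 pairs and a loop of 4 bases, at -43.30 kcal/mol. Its only mature miRNA, at bases 17 to 38, runs along the 5′ arm and covers all 4 loop bases. RefSeq places Mir451b on the opposite strand of the same bases, and its product was not analysed here.

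The mature sequences are shown for their seeds, in capitals. They occupy chr11:78073186-78073207 (miR-451a), chr11:78073047-78073066 (miR-144-3p) and chr11:78073010-78073032 (miR-144-5p), all on the plus strand. MiR-101a-3p, from chromosome 4, is set beside them because it shares bases 2 to 7 of miR-144-3p, the part in capitals there.
miR-451a: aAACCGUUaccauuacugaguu
miR-144-3p: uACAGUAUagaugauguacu
miR-144-5p: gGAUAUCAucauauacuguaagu
miR-101a-3p: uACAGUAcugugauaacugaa

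MiR-451a has 22 bases, of which 36.4% are G or C, and miR-144-3p has 20 bases, of which 30% are G or C. The seeds of miR-451a and of both arms of miR-144 differ, so miRNAs of this locus share position and not seed. The array names miR-451 and miR-144 carry no arm. The sequences of the probes were not used here, so the arm read by the miR-144 probe was not established.

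G1E-ER4 is a single mouse erythroid line that lacks its own GATA-1 and carries a GATA-1 form that responds to estrogen. All 6 cultures were grown and harvested separately in medium with 15% serum, 4.5e-05 M monothioglycerol, 2 U/ml Epo (erythropoietin) and 50 ng/ml stem cell factor. The untreated group (n = 3) received no estradiol and is given as 0 h, and the estradiol group (n = 3) received 1e-07 M β-estradiol for 24 h. Neither a culture held for 24 h with no estradiol nor cells lacking the estrogen-responsive GATA-1 were analysed here, so GATA-1 activation cannot be told apart from time in culture or from estradiol acting in other ways. In RNA from a whole culture, fewer cells of a type and less RNA per cell cannot be told apart either. Each sample was labelled with the dye Hy3 and hybridized together with a common reference, an equal mixture of all 6 samples, labelled with Hy5. No dye swap is described, so a dye bias of a probe would stand in every ratio of that probe.

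Over the probes that name a mouse miRNA, the median Hy3 foreground intensity ranged from 1667 to 2261 scanner units on untreated arrays and from 1835 to 1954 on estradiol arrays. Among the 294 probes, 76 to 77 per untreated array and 97 to 102 per estradiol array were called above background in Hy3, which here means that at least 0.5 of a probe's spots were not called empty by the image software. In Hy5, which held the same RNA on every array, 78 to 108 probes were called above background on untreated arrays and 115 to 116 on estradiol arrays. The arrays of the groups thus differed in how many probes were detected even in the reference, and the part of this in the results below was not tested.

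MiR-451 was not detected in untreated cells by the image software and was bright after estradiol. Its mean Hy3 foreground over all 4 spots, whether or not later left out, was 1618, 1982 and 2253 on untreated arrays, beside local backgrounds of 989, 1506 and 1359. On estradiol arrays it was 11592, 14691 and 22735, beside backgrounds of 1068, 1070 and 1018. All estradiol values stood above all untreated values, and the image software called 12 of 12 untreated spots and 0 of 12 estradiol spots empty in Hy3.

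The same probe was bright in the reference on every array, as the open and filled symbols of the plot of every spot show. Its mean Hy5 foreground was 11035, 10465 and 16322 on untreated arrays and 6339, 8122 and 17213 on estradiol arrays, and 0 of its 24 Hy5 spots were called empty. The dim Hy3 signal of untreated cells was thus read from the same spots that were bright in Hy5.

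**Figure D1:**
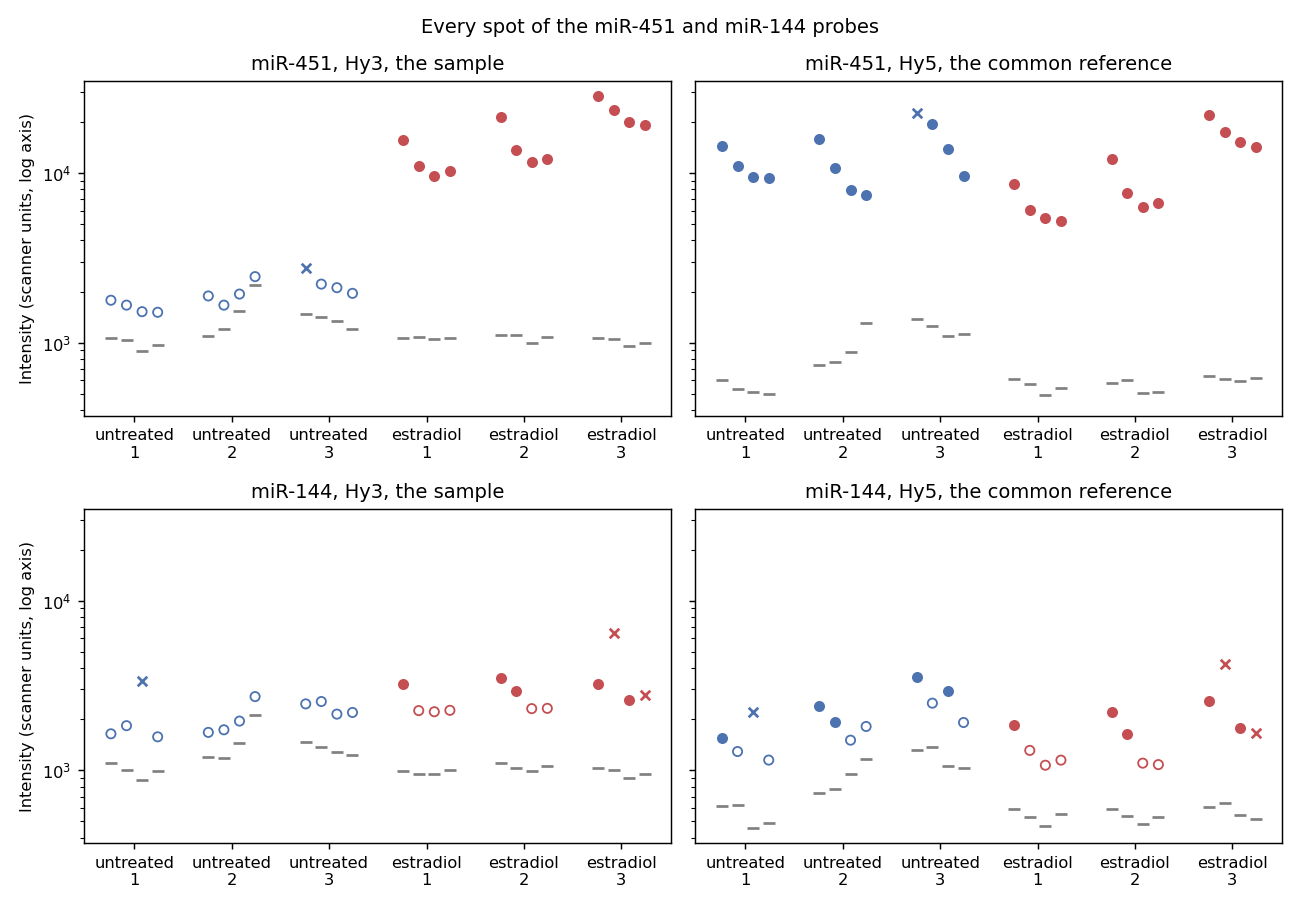
Foreground intensity of each spot in scanner units (log axis) for both miRNAs and both channels on the 6 arrays, the 4 spots of an array in order of block; filled circles are spots not called empty, open circles spots called empty, crosses spots left out for shape or contamination and grey dashes the local background. MiR-451 is open on all untreated arrays, apart from 1 cross on replicate 3, and filled on all estradiol arrays in Hy3, whereas its Hy5 spots are bright on all 6.

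After normexp background correction and loess normalization within each array, the log2 ratio of sample to reference for miR-451 was -4.74, -4.11 and -4.26 on untreated arrays and 0.79, 0.66 and 0.57 on estradiol arrays. The untreated cultures lay far below the reference and the estradiol cultures above it, with no overlap between the groups. The means were -4.37 ± 0.33 (SD, n = 3) and 0.67 ± 0.11 (SD, n = 3), which differed by 5.04 (SE 0.15; limma adjusted p = 1.302e-12 over 294 probes). In this fit 19 probes (6.46%) passed the threshold, 17 as higher (5.78%) and 2 as lower (0.68%) after estradiol, and both miRNAs were among the 17. Groups without overlap, higher after estradiol, were seen for 14.4% of the probes with a value on all 6 arrays, and again both miRNAs were among them.

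The size of the rise of miR-451 could only be bounded roughly, since the untreated signal was not well above background on any of the 3 arrays. A Hy3 level was rebuilt from the loess ratio and the average intensity of both channels, the latter quantile normalized between arrays. It is thus not free of the reference. On this scale the mean of miR-451 was 13.60 (log2) on estradiol arrays and was measured at 9.20 on untreated arrays. The mean of the lowest signals called above background on untreated arrays was 10.43. With this floor as the untreated level, miR-451 was 9.04-fold higher after estradiol. A probe called empty can lie above the dimmest probe called above background, so 9.04 is not a strict bound. With the stricter requirement that the signal exceed the local background by 2 background SD, the rough bound was 4.96-fold. The fitted difference of 5.04 rests on untreated values near the blank and is not such a bound.

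Blank spots, which carry no probe, gave a second view of the untreated level of miR-451. Its median Hy3 signal over background was 214, 28.8 and 365 scanner units on untreated arrays, and that of the 80 blank spots of an array was 61.8, 50.8 and 52. The highest blank spots reached 267, 236 and 1231, and 2 of the 12 untreated miR-451 spots exceeded the highest blank of their array. On estradiol arrays the median was 8867, 11437 and 20306, and 12 of 12 spots exceeded every blank. Untreated replicate 3 had a single blank spot far above its others: its 95th percentile of blanks was 237, which all 4 of its miR-451 spots exceeded, against 2 spots in replicate 1 and 1 spot in replicate 2.

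Spots of a probe are repeats of the same sample and not replicates, and they show how well each ratio was read. The SD of the log2 ratio between the spots of miR-451 was 0.168, 0.160 and 0.459 on untreated arrays and 0.0777, 0.00864 and 0.0233 on estradiol arrays. Single spots ran from -4.93 to -3.78 in untreated cells and from 0.54 to 0.89 after estradiol, so that no spot of either group came near the other. In Hy5 the brightest miR-451 spot was that of block 2 on 6 of 6 arrays, and the brightest spot was 1.57 to 2.51 times the dimmest. This difference between blocks was shared by both channels where both were bright, as the small spread of the estradiol ratios shows.

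The authors' deposited table gave the same order of values for miR-451. Its log2 ratios were -4.49, -4.25 and -4.01 for untreated cells and 0.80, 0.69 and 0.57 after estradiol. The coefficients of variation between spots in the authors' deposited table were 11.7, 15.4 and 24.7 for untreated arrays and 5.31, 0.771 and 2.00 for estradiol arrays. The spread was again wider on untreated arrays.

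**Figure D2:**
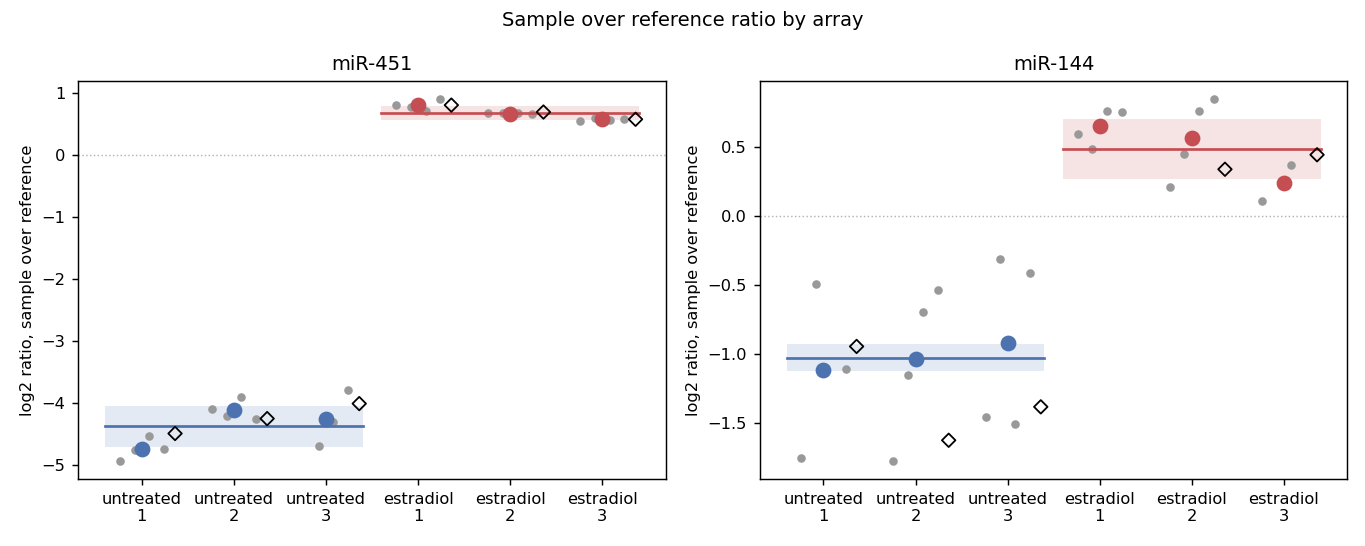
Log2 ratio of sample to reference on each array for both miRNAs, with separate vertical scales; small grey points are spots, large points array means, lines and bands the group mean ± SD (n = 3) and open diamonds the authors' deposited values, of which estradiol replicate 1 of miR-144 has none. The groups do not overlap for either miRNA, and the spots of miR-144 spread between -1.77 and -0.31 on untreated arrays.

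MiR-144 was higher after estradiol too, at a much lower signal. Over all 4 spots, its mean Hy3 foreground was 2108, 2019 and 2336 on untreated arrays, beside backgrounds of 998, 1493 and 1338, and 2482, 2761 and 3754 on estradiol arrays, beside backgrounds of 975, 1043 and 972. All 3 estradiol values lay above all 3 untreated values, but by little, and the 3754 of estradiol replicate 3 includes 2 spots that were left out of the ratios. In Hy3, 11 of 12 untreated spots were called empty, and the remaining spot was left out for shape or contamination. After estradiol 5 of 12 spots were called empty.

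In the reference channel miR-144 was also dim, unlike miR-451. Its mean Hy5 foreground was 1549, 1913 and 2716 on untreated arrays and 1347, 1507 and 2567 on estradiol arrays, and 13 of 24 Hy5 spots were not called empty. Both numerator and denominator of its ratio were thus near the limit of the array.

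On each array in turn, the log2 ratio of miR-144 was -1.12, -1.04 and -0.92 on untreated arrays and 0.65, 0.57 and 0.24 on estradiol arrays. The groups did not overlap, and estradiol replicate 3, from which 2 of 4 spots were left out for shape or contamination, was the lowest of its group. The means were -1.02 ± 0.10 (SD, n = 3) and 0.49 ± 0.22 (SD, n = 3), which differed by 1.51 (SE 0.16; limma adjusted p = 1.149e-05). Among the 294 probes this was the change of rank 2 by size and rank 3 by p, after miR-451 by size and after miR-451 and miR-500 by p. The call ended in Hy3 alone without the reference (0.87; limma adjusted p = 0.130) and, in an alternative chosen after seeing the data, with loess fitted on spots above background by 2 SD in both channels (1.16; limma adjusted p = 0.126). Over the 23 alternatives that gave miR-144 a value the change lay between 0.75 and 1.96, higher after estradiol in each.

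No fold is given for miR-144. It was called above background on 0 untreated and 2 estradiol arrays in Hy3, and on 4 of 6 arrays in the reference. Its Hy3 mean after estradiol, rebuilt as for miR-451, was 10.27 (log2). This lay below the floor of 10.43 of untreated arrays, so no bound above 1 could be set.

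Blank spots were set beside the miR-144 signal as well. Its median Hy3 signal over background was 296, 106 and 678 scanner units on untreated arrays and 878, 1252 and 1716 on estradiol arrays. The highest blank was exceeded by 2 of 12 untreated spots and by 12 of 12 estradiol spots. Both untreated spots were on replicate 1, and 1 of them was left out for shape or contamination. On untreated replicate 3 that cut was the single blank spot at 1231, and all 4 of its miR-144 spots exceeded the next highest blank, at 287. The 95th percentile of the blanks was exceeded by 2, 0 and 4 untreated spots on replicates 1 to 3, and by all 4 spots of each estradiol array. In Hy5 all 24 spots exceeded the highest blank of their array. The probe thus gave a Hy5 signal above that of blanks on every array, including where the image software called it empty.

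**Figure D3:**
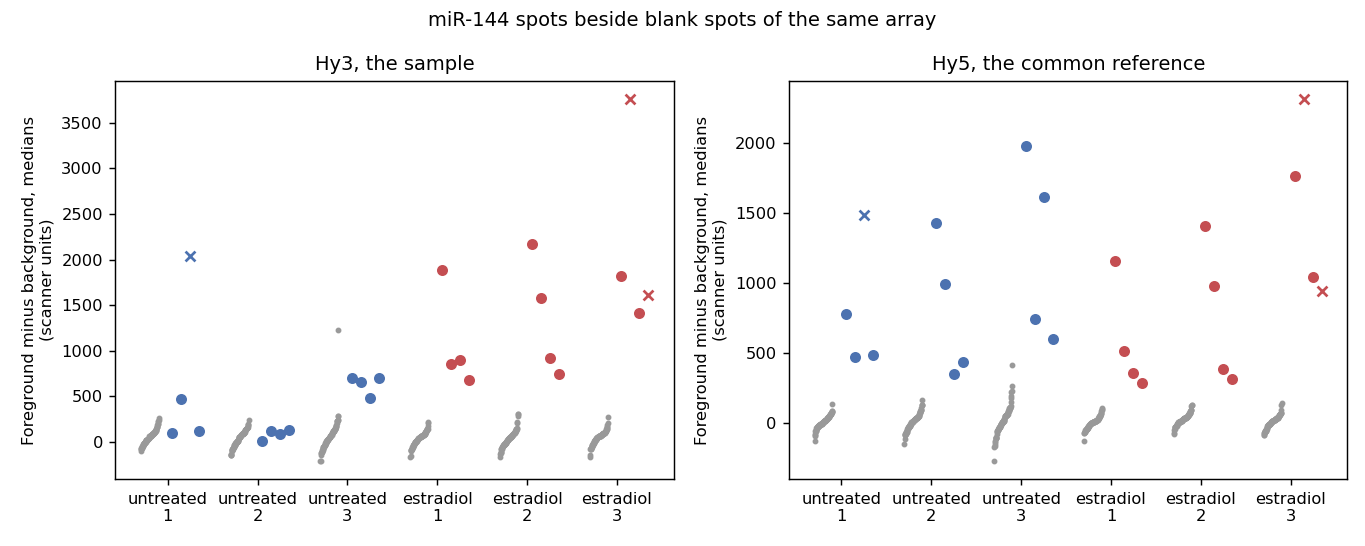
Median foreground minus median background of each miR-144 spot in scanner units (blue untreated, red estradiol, crosses left out for shape or contamination) beside the blank spots of the same array (grey, sorted), in Hy3 and in Hy5. In Hy3 the 12 estradiol spots lie above every blank of their array, the spots of untreated replicate 3 above every blank but the one at 1231 and those of untreated replicate 2 among the blanks, and in Hy5 all 24 spots lie above the blanks.

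The spots of miR-144 differed more among themselves than those of miR-451. The SD of the log2 ratio between spots was 0.632, 0.557 and 0.648 on untreated arrays and 0.134, 0.292 and 0.185 on estradiol arrays. On every untreated array the lowest ratios came from spots detected in Hy5: spots not called empty in Hy5 had ratios from -1.77 to -1.15 and spots called empty from -1.11 to -0.31. With spots empty in both channels left out, the array values became -1.75, -1.46 and -1.48 for untreated cells and 0.60, 0.33 and 0.24 after estradiol. These groups did not overlap, but the choice is no separate support. It kept untreated spots by their Hy5 signal, the denominator of the ratio, which favours low untreated ratios. A single spot was left on untreated replicate 1 and on estradiol replicate 1. The Hy5 signal of miR-144 varied between the spots of an array by 2.13 to 3.19 times.

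The authors' deposited table held a value of miR-144 for 5 of the 6 arrays. Its log2 ratios were -0.94, -1.62 and -1.38 for untreated cells and 0.34 and 0.45 for estradiol replicates 2 and 3, with none for estradiol replicate 1. In the authors' deposited table the coefficients of variation between spots were 69.9, 33.2 and 0.579 for untreated arrays and 11.1 and 17.4 after estradiol. A fit of these ratios over probes with at least 2 arrays in each group, which lacks that estradiol array, gave a difference of 1.71 (limma adjusted p = 0.00315). The authors' values are for probes with spots not marked empty, and the spots behind each value were not established here. A choice of spots by their signal may favour low untreated ratios here too, so this fit is no separate support.

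The ratio of miR-451 changed more than that of miR-144. The log2 ratio of miR-451 minus that of miR-144 was -3.35 ± 0.27 (SD, n = 3) on untreated arrays and 0.19 ± 0.12 (SD, n = 3) on estradiol arrays. The difference between the groups was 3.53, and the groups did not overlap (two-sided exact permutation p = 0.1, the smallest that the 20 splits of 3 against 3 arrays allow). After estradiol both miRNAs stood at similar ratios to the reference, and they differed in how far below it the untreated cultures lay. The reference is an equal mixture of all 6 samples, so a miRNA higher after estradiol stands little above it, however large the rise. The similar estradiol ratios, and a difference on the untreated side, thus follow largely from the design. Untreated cultures made up 2.98% of the summed linear ratios of miR-451 over the 6 arrays and 25.8% of those of miR-144. Both untreated levels were close to background, so the distance between the changes is that of the measured ratios and not of RNA amounts.

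The reference holds an equal share of every sample, so the linear ratios of a probe would average 1 over the 6 arrays if both dyes read alike. The linear ratios of miR-451 were 0.0375, 0.0578 and 0.0523 for untreated cultures and 1.73, 1.58 and 1.48 for estradiol cultures, with a mean over 6 arrays of 0.824. Those of miR-144 were 0.462, 0.488 and 0.529 and then 1.57, 1.49 and 1.18, with a mean of 0.953. Both means lay below 1, that of miR-451 further than that of miR-144.

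The Hy5 channel held the same RNA on all arrays and shows how far a level moved with no change of sample. Centred on the Hy5 median of each array, the log2 level of miR-451 was 4.72, 4.18 and 4.70 on untreated arrays and 3.48, 3.96 and 5.06 on estradiol arrays. The groups overlapped, and their difference of -0.37 was small beside the change of 4.67 in the centred Hy3 level (two-sided exact permutation p = 0.6 for Hy5 and 0.1 for Hy3, the latter the smallest possible). For miR-144 the Hy5 levels were 1.06, 1.05 and 1.61 on untreated arrays and 0.58, 0.89 and 1.69 on estradiol arrays, also with overlap. Their difference was -0.19, beside 1.22 in Hy3 (two-sided exact permutation p = 0.6 and 0.1). Between single arrays, however, the Hy5 level of miR-144 ran from 0.58 to 1.69. That span, with no change of sample, was close to the 1.22 in Hy3. Without estradiol replicate 1 the Hy5 difference of miR-144 was 0.047, so its sign rested on that array.

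Set among all named probes, the place of miR-451 was its own, as the plot of change against adjusted p shows. The changes of the 294 probes ran from -0.75 to 5.04, with a median of -0.02. MiR-144 lay next to miR-500 and miR-21 in that plot. The count of 19 called probes fell to 8 without estradiol replicate 1 and to 11 without estradiol replicate 2.

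**Figure D4:**
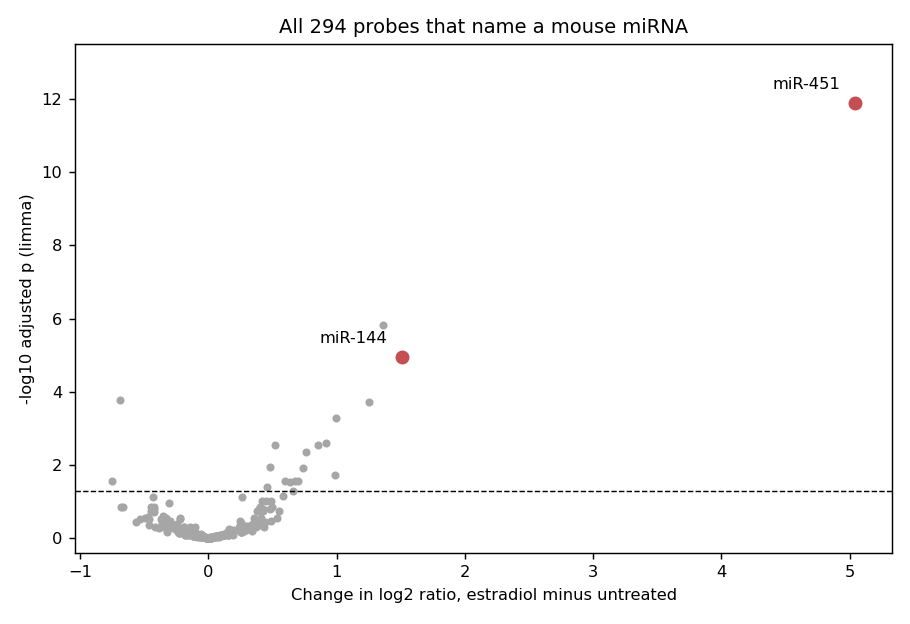
Change in log2 ratio, estradiol minus untreated (horizontal), against -log10 of the limma adjusted p (vertical) for the 294 probes that name a mouse miRNA, 3 arrays per group; red points are miR-451 and miR-144 and the dashed line is an adjusted p of 0.05. MiR-451 lies at 5.04, apart from all other points, and miR-144 at 1.51.

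Likeness of pattern was measured as the root mean square difference of log2 ratios over the 6 arrays, which share their reference. The probes nearest to miR-144 were those of miR-21 (0.239), miR-500 (0.242), miR-29a (0.318) and miR-16 (0.406). MiR-21, for example, had log2 ratios of -0.73, -1.24 and -0.91 before estradiol and 0.55, 0.23 and 0.10 after it, and rose by 1.25 (SE 0.17; limma adjusted p = 1.952e-04). No named probe came near miR-451. Its nearest were miR-15a (2.27), 1 of the probes of miR-195 (2.32), miR-144 (2.38) and miR-500 (2.40), several times the distances seen for miR-144. MiR-144 was therefore the third nearest named probe of miR-451 without resembling it in size.

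MiR-101a, whose seed overlaps that of miR-144-3p as printed above, was read by its own probe. It was not called above background on any of the 6 arrays, and its log2 ratio differed by 0.09 (SE 0.25; limma adjusted p = 0.885). This p does not show that miR-101a was unchanged.

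Other miRNAs linked to red cell maturation were read by probes that were mostly near background. Of 17 probes for 16 such miRNAs, chosen with earlier results of these data known and without miR-451 and miR-144, 2 rose and 0 fell, where 5.78% of all 294 probes were called higher, and their median change was 0.38, beside -0.02 over all 294 probes. MiR-16, which holds back cell cycle genes, rose by 0.99 (SE 0.23; limma adjusted p = 0.0183), and miR-15b, which shares its seed, rose by 0.76 (SE 0.15; limma adjusted p = 0.00439). MiR-486, which is abundant in red cells and was picked after its value was seen, differed by 0.43 (limma adjusted p = 0.176). Of the 17 probes, 1 was called above background on all 3 untreated arrays and 4 on all 3 estradiol arrays. Over all 294 probes the corresponding counts were 56 and 84. The count of 2 was 0 without estradiol replicate 1, and 1 without estradiol replicate 2 or without untreated replicate 3.

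Markers of the labelled cell type and of other cells were read on the same arrays. Of 8 erythroid marker probes, among them miR-451 and miR-144, 4 rose (miR-451, miR-144, miR-16 and miR-15b), beside the 5.78% called higher over all 294 probes. Of the 8, 1 was called above background on all 3 untreated arrays and 5 on all 3 estradiol arrays. Over all 294 probes the corresponding counts were 56 and 84. MiR-16 and miR-15b were each called above background on 2 untreated arrays. Before estradiol the erythroid markers thus gave little positive evidence of the erythroid label, and messenger RNA markers such as globins were not analysed here. Of 21 marker probes of other blood cells and fibroblasts 3 rose and 0 fell, again beside 5.78%, with a median change of 0.15. All 3 belong to the 8 myeloid and mast cell probes: miR-21, miR-142-3p and miR-142-5p, the last named after its value was seen. The change was 0.92 for miR-142-3p (SE 0.17; limma adjusted p = 0.00252) and 0.67 for miR-142-5p (SE 0.17; limma adjusted p = 0.0272). MiR-142 is made across blood cells, and miR-21 in many cell types.

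The mean log2 ratio of the 8 myeloid and mast cell probes ranged from -0.19 to 0.08 on untreated arrays. On estradiol arrays it ranged from 0.23 to 0.40, without overlap and with no test of the list. The means of the erythroid markers (-0.87 to -0.67, then 0.13 to 0.38) did not overlap either. Nor did those of the erythroid maturation list (-0.40 to -0.28, then -0.14 to 0.06) or of the 21 markers of other cells together. Those of the megakaryocyte, lymphoid and fibroblast lists overlapped. The corresponding mean over all 294 probes is not given here. Of the 8 myeloid and mast cell probes 3 passed the threshold. The log2 ratio differed by -0.31 for miR-146b (limma adjusted p = 0.508) and by -0.26 for miR-155 (limma adjusted p = 0.502). It differed by -0.05 for 1 of the probes of miR-146 (limma adjusted p = 0.906) and by 0.44 for the other (limma adjusted p = 0.502). The negative changes were the only ones among these 8 probes, and all of these miRNAs were named after their values were seen. MiR-223, a granulocyte miRNA named after its value was seen, was called above background on 0 untreated arrays and 1 estradiol array, with a change of 0.39 (limma adjusted p = 0.162). Of 6 megakaryocyte, 4 lymphoid and 5 fibroblast probes 0 passed the threshold, beside 6.46% of all 294 probes in either direction. Lists this short can hold no call at that share, so the 0 does not show that these markers were unchanged. The median changes of the lists were 0.21, -0.03 and -0.14. The part of other cell types in the changes of miR-451 and miR-144 was not tested.

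The processing bore differently on the miRNAs of the locus, as the plot of both changes over the processing settings shows. The change of miR-451 passed the threshold in each of 26 alternatives, and that of miR-144 in 21 of 23. Both were smallest without background correction, at 3.50 and 0.75.

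**Figure D5:**
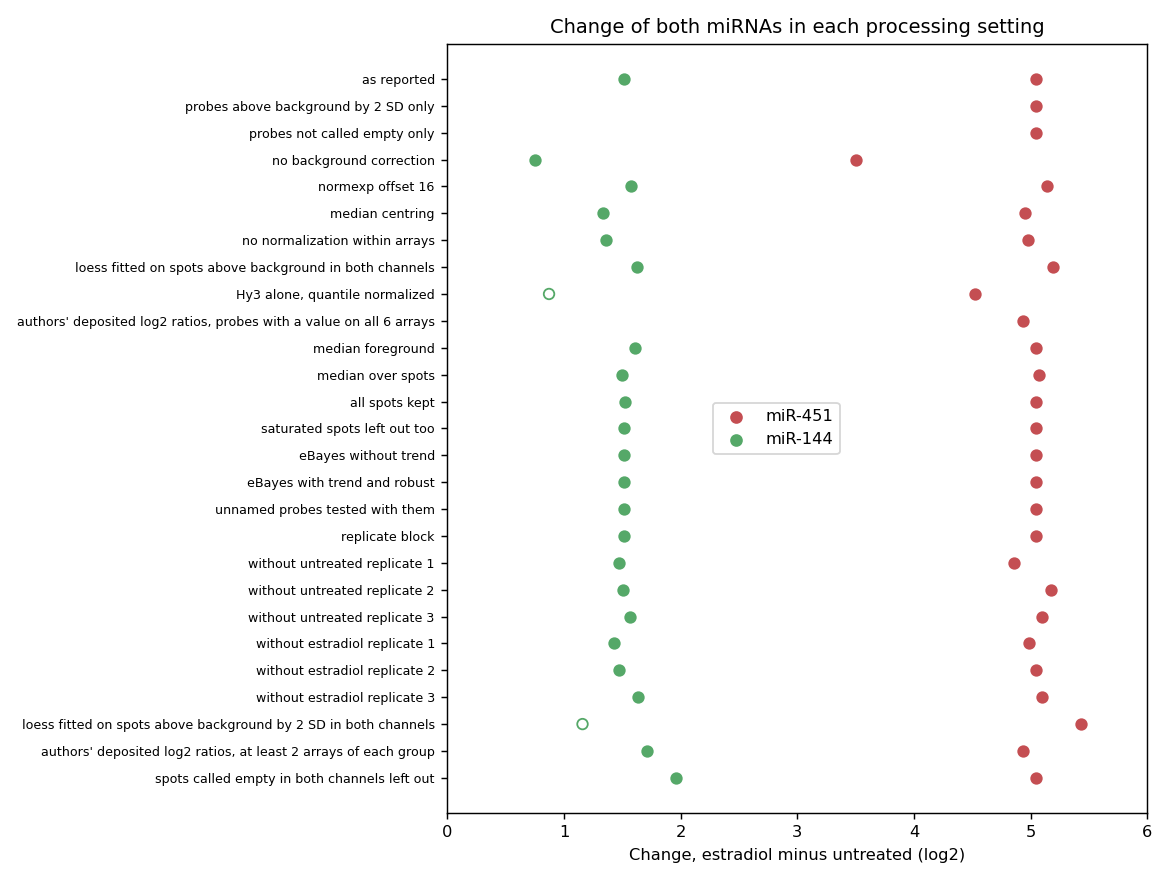
Change of miR-451 (red) and miR-144 (green), estradiol minus untreated on the log2 scale, as reported and in each alternative processing; filled points passed an adjusted p of 0.05 and open points did not, and a missing green point marks a setting in which miR-144 had too few values or was filtered out. MiR-451 stays between 3.50 and 5.43 and is filled throughout, whereas miR-144 lies between 0.75 and 1.96 and is open in 2 settings.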

How the data were processed

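Both channels of 6 arrays were analysed, 3 per group, grouped by the sample titles. Members and lists were chosen with earlier results of these data known. The deposited scanner tables hold foreground and background intensity per spot with spot flags, per the file headers. No source used here names the scanner or the image software. The authors' deposited tables of normalized values hold a ratio of Hy3 over Hy5 per probe, its log2, and a score of spread between spots (the coefficient of variation), per the file headers, for probes with spots not marked empty.

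From the intensities, normexp (offset 50) and loess within arrays (control spots at weight 0) gave log2 ratios, averaged over spots. Between 111 and 212 of 2240 spots per array, with a flag for shape or contamination, were excluded, and saturated spots were kept; 0 spots of either miRNA were saturated. No brightness filter was used, so that both miRNAs were tested. Groups were compared over 294 probes with limma 3.58.1 in R 4.3.3 (lmFit, eBayes with trend, Benjamini-Hochberg, threshold 0.05), tested on simulated data. Probes of the same miRNA were tested separately. The number of arrays limits the precision, and p-values measure the spread between cultures of the same line. In limma that spread is partly borrowed from other probes. On its own 6 arrays, the log2 ratio of each miRNA gave a two-sided exact permutation p of 0.1, the smallest possible. Same-numbered samples did not deviate together clearly enough to be called paired. RNAfold 2.7.2 folded the hairpins, and matplotlib 3.10.9 under Python 3.11.15 drew the figures.

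MiRNAs were named by rule: both members, the 4 nearest named probes of each, erythroid maturation list members past the threshold or with the 2 largest changes, and the 2 largest changes among markers of other cells. MiR-486, miR-142-5p, miR-223, miR-146, miR-146b and miR-155 were named after their values were seen, and miR-101a for its sequence.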

Additional observations from a re-analysis of the deposited data

How the results depend on the processing

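MiR-451 kept its direction and its call in all 26 alternatives, with changes from 3.50 (no background correction) to 5.43 (loess on spots above background by 2 SD in both channels), and from 4.86 to 5.17 with a replicate left out. MiR-144 was higher in all 23 alternatives that gave it a value and passed in 21, with changes from 1.43 to 1.64 when a replicate was left out. Its call ended in Hy3 alone (0.87) and with the loess on spots above background by 2 SD (1.16), an alternative chosen after seeing the data like the spots empty in both channels left out (1.96) and the authors' ratios on at least 2 arrays per group (1.71). The cause was not tested. The alternative that gave 1.96 kept untreated spots by their Hy5 signal, which favours low untreated ratios. The same may hold for the 1.71, since the spots behind the authors' ratios were not established. Both brightness filters left miR-144 out, as did the authors' ratios limited to probes with all 6 arrays. MiR-451 changed more than miR-144 by 2.76 to 4.28 in 17 alternatives, and by 3.39 to 3.67 with a replicate left out. The reference level of miR-144 turned from -0.19 to 0.047 without estradiol replicate 1 (-0.51 to 0.047 over the replicates left out), and that of miR-451 stayed between -0.81 and -0.025. The count of 19 called probes became 7 with the 2 SD filter (51 probes tested), 10 without normalization, 5 in Hy3 alone, 8 without the trend, 11 with the 2 SD loess (8 higher, 3 lower) and 8 to 25 with a replicate left out. The erythroid maturation count of 2 became 0 with the 2 SD filter (1 probe tested), 1 without normalization, 0 in Hy3 alone, 1 without the trend, 1 with the 2 SD loess and 0 to 3 with a replicate left out. Same-numbered samples correlated at 0.129, 0.152 and 0.0764 over 292 probes, and every array correlated best with its own number. With the replicate number as a block the changes were 5.04 (limma adjusted p = 3.005e-08) and 1.51 (limma adjusted p = 4.160e-04), both miRNAs kept their calls, and the counts were 19 and 2. Signal over background limits the untreated level of miR-451 and every value of miR-144.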

Other observations

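A probe without a named mouse target (probe 11115) followed miR-451 more closely than any named probe did. It was chosen after its values were seen and was not among the probes tested. Its log2 ratios were -5.32, -4.53 and -5.12 on untreated arrays and 0.83, 0.69 and 0.57 on estradiol arrays, a difference of 5.69, and its root mean square difference from miR-451 over the 6 arrays was 0.459. It was called above background in Hy3 on 0 untreated and 3 estradiol arrays. The tables pair it with no mouse miRNA, so it is given by its number only.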
